A study of Homo sapiens with 3 samples.

Results

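Gene expression was compared between 2 cultures of the same cell line that had been given different siRNAs against the same gene, DLX5. The cells were KYSE140, an established human line of esophageal squamous cell carcinoma, grown in RPMI1640 medium with serum. The samples were labelled negative control, DLX5 knockdown with siRNA1 and DLX5 knockdown with siRNA2, with 1 sample each; the siRNA sequences, dose and time after transfection are not given in the sources used here. The genes described are the 11888 of 17219 genes with a value that reached at least 1 FPKM with either siRNA, whatever their difference. FPKM is the number of sequenced fragments scaled to transcript length and to the depth of the library. Of the genes near that limit, 120 lay between 1 and 1.1 FPKM and 125 just outside between 0.9 and 1.

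DLX5 is one of the distal-less homeobox transcription factors that pattern the skeleton and face, and the study's title sets it beside TP63, a regulator of squamous epithelium. An siRNA is a short RNA duplex of which a strand is loaded into an Argonaute protein and guides it to a matching transcript, which is then cut. The first bases of a loaded strand, the seed, can also pair with other transcripts, mostly in the 3′ UTR (the untranslated part after the stop codon), as a microRNA does. The comparison asked which transcripts differ between cells given different siRNAs against 1 gene, with the control sample as the reference level.

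Each sample had 2 replicate columns of FPKM, which the labels do not tie to separate cultures. With 1 sample per siRNA there is no test and no p-value, and a difference between the siRNAs cannot be told apart from one between the cultures; SDs and SEs are over the replicate columns of a sample and may be purely technical. Depth, estimated from the spacing of low values, was 17100000 to 18200000 reads in each column. Markers of squamous epithelium identified the cells: 8 of 8 reached 1 FPKM and their summed level was 3115 to 3225 FPKM in the siRNA columns and 7329 to 7398 in the control columns. Fibroblast markers summed to 7.60 to 16.01 FPKM with 1 of 6 at 1 FPKM or more, immune markers to 4.23 to 8.29 FPKM with 2 of 5, and endothelial markers to 0.22 to 0.56 FPKM with 0 of 3. The series' design text speaks of retina, whose markers summed to at most 2.34 FPKM with 1 of 6 at 1 FPKM or more. Glandular markers reached 1 FPKM in 3 of 6 and summed to 875 and 879 FPKM with siRNA1, 1041 and 1040 with siRNA2 and 1286 and 1300 in the control; their part in the results was not tested. As in any bulk sample, fewer cells of a kind and less RNA per cell cannot be told apart.

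The target itself was low with both siRNAs. DLX5 stood at 13.07 and 12.93 FPKM in the control columns, at 3.65 and 3.61 with siRNA1 and at 3.27 and 3.23 with siRNA2. The level was 3.58-fold below the control with siRNA1 and 4.0-fold below it with siRNA2. Between the siRNAs the log2 ratio of FPKM + 1 was -0.12 ± 0.01 (SE over replicate columns), with siRNA2 slightly lower and no overlap of the columns. Among the family members, DLX1 averaged 5.38 FPKM in the control, 2.56 with siRNA1 and 2.96 with siRNA2, and none of the 4 DLX genes at 1 FPKM or more was 1.5-fold apart between the siRNAs.

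Genes further apart were more often higher with siRNA2 than lower. A gene was called apart when its mean FPKM + 1 differed by at least 1.5-fold and the replicate columns of the siRNA samples did not overlap. By this rule 293 genes (2.46% of 11888) were higher with siRNA2 and 156 (1.31%) were lower, 449 (3.78%) in all. At 2-fold, 49 genes (0.412%) were higher and 8 (0.0673%) lower, 57 (0.479%) in all. The lean depended on the scale: with a pseudocount of 0.1 in place of 1 there were 445 higher and 330 lower at 1.5-fold and 86 and 40 at 2-fold. The authors' deposited fold changes gave 460 and 352, and 94 and 53, counted without the rule on replicate columns. The median log2 ratio over all 11888 genes was -0.02, its SD 0.27, and 98% of genes lay between -0.62 and 0.81.

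More genes were 1.5-fold apart between the siRNAs than between the replicate columns of a sample. A call already requires replicate columns apart, so this compares counts of genes and does not judge single calls. Set against each other, the replicate columns of a sample differed by at least 1.5-fold in 30 genes in the control, 44 with siRNA1 and 27 with siRNA2, against 450 between the siRNA means (1 more than the calls, because its columns overlap). At 2-fold, 12 genes were apart within each sample, counted in either direction between single columns, against 57 between the siRNA means. Of these 57, 49 were higher and 8 lower with siRNA2. Among the 8966 genes with 5 FPKM or more, 1 to 3 genes were 2-fold apart within a sample and 52 between the siRNAs, of which 46 were higher and 6 lower with siRNA2. The median difference between the siRNAs was 11.5%, and 4.33% to 5.92% within a sample.

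**Figure D1:**
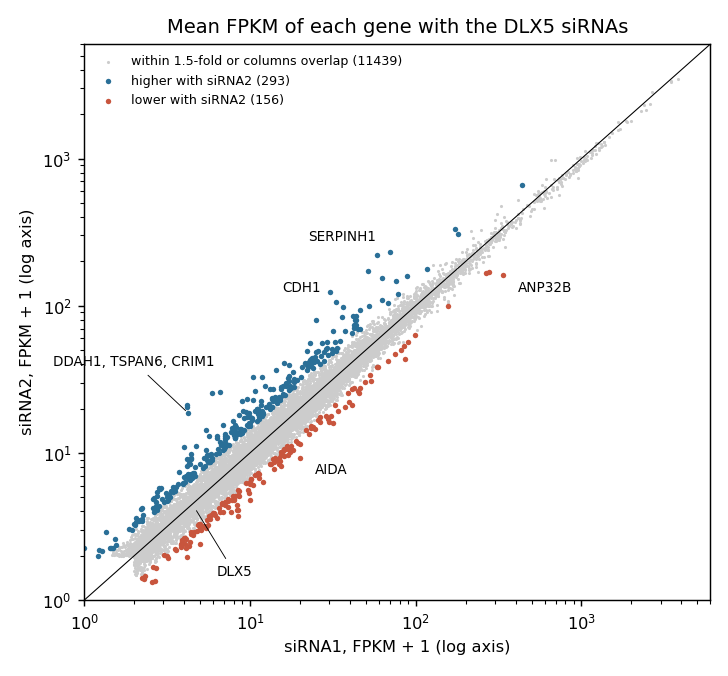
Mean FPKM + 1 of each of the 11888 genes with siRNA1 (horizontal, log axis) and siRNA2 (vertical, log axis), 1 point per gene, with the line of equal values; blue points are the 293 genes at least 1.5-fold higher with siRNA2 and red points the 156 lower. DDAH1, TSPAN6 and CRIM1 stand farthest above the line, while DLX5 lies close to it.

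The genes that differed most were low with siRNA1 and near the control with siRNA2. DDAH1, an enzyme that breaks down methylated arginines that inhibit nitric oxide synthase, stood at 26.5 and 25.2 FPKM in the control columns, 3.31 and 3.02 with siRNA1, and 20.5 and 20.1 with siRNA2. TSPAN6, a tetraspanin membrane protein, stood at 20.03 and 19.71 FPKM in the control, 3.04 and 3.35 with siRNA1, and 18.8 and 19.9 with siRNA2. In both genes only the siRNA1 columns were low, and the log2 ratios of siRNA2 over siRNA1 were 2.36 ± 0.05 for DDAH1 (6.42-fold in FPKM) and 2.28 ± 0.07 for TSPAN6 (6.06-fold). CRIM1, a membrane protein that binds bone morphogenetic proteins, stood at 33.8 and 30.0 FPKM in the control, 3.36 and 3.12 with siRNA1, and 17.4 and 17.8 with siRNA2. It was below the control with either siRNA, 9.85-fold with siRNA1 and 1.81-fold with siRNA2, and its log2 ratio between them was 2.14 ± 0.04 (5.44-fold).

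CDH1, which encodes E-cadherin, the adhesion molecule of epithelial cell contacts, was more abundant than DDAH1, TSPAN6 and CRIM1. It stood at 126.7 and 119 FPKM in the control, 31.7 and 31.9 with siRNA1, and 106 and 102 with siRNA2, a log2 ratio of 1.68 ± 0.03 and 3.27-fold in FPKM. No siRNA1 column of CDH1 came near any other column.

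The other leading genes higher with siRNA2 were of mixed function and again lowest with siRNA1. MAGED2, of the melanoma antigen family, stood at 5.42 and 4.40 FPKM with siRNA1 and at 25.4 and 23.6 with siRNA2 (control mean 21.5). The 14-3-3 protein gene YWHAH stood at 29.8 and 28.6 FPKM with siRNA1 and at 122 in both columns with siRNA2 (control mean 101). NEU1, a lysosomal sialidase, stood at 5.29 and 5.94 FPKM with siRNA1 and at 25.5 and 24.6 with siRNA2 (control mean 24.4). None of these siRNA1 columns overlapped those of another sample. The heparin-binding growth factor gene MDK stood at 55.3 and 59.8 FPKM with siRNA1 and at 216 and 225 with siRNA2 (control mean 230). HNRNPF, an RNA-binding splicing factor, stood at 52.0 and 49.2 FPKM with siRNA1 and at 174 and 170 with siRNA2 (control mean 167). SERPINH1, a chaperone of collagen folding, stood at 67.5 and 70.7 FPKM with siRNA1 and at 235 and 226 with siRNA2 (control mean 220). The chromatin protein gene HMGA2, the kinase gene NEK6, the sterol regulator SREBF2, the membrane protease gene ADAM9 and the YAP relative WWTR1 followed. Their log2 ratios were 1.68, 1.65, 1.48, 1.43 and 1.39. YWHAH and HNRNPF have close relatives in the genome, so their FPKM depends on how shared reads were assigned.

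**Figure D2:**
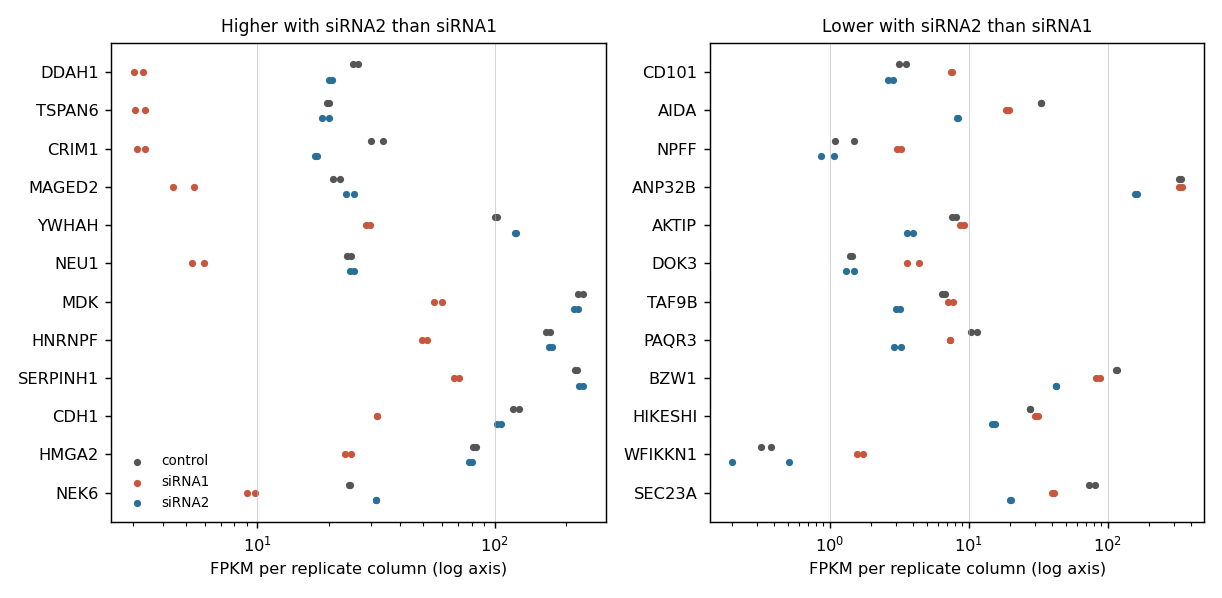
FPKM in each replicate column (log axis) of the 12 genes with the highest (left) and the 12 with the lowest (right) log2 ratio of siRNA2 over siRNA1, with 2 points each for the control (grey), siRNA1 (red) and siRNA2 (blue). In the left panel the siRNA1 points stand apart from the other samples, as for TSPAN6 at 3.04 and 3.35 FPKM against 18.8 to 20.03, while in the right panel the blue points are lowest for most genes and the place of the control varies.

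Genes lower with siRNA2 differed by less, and their leading ratios included low genes. CD101, an immunoglobulin family membrane protein, stood at 7.60 and 7.44 FPKM with siRNA1 and at 2.84 and 2.64 with siRNA2, a log2 ratio of -1.19 ± 0.04; its control mean of 3.36 was nearer siRNA2. ANP32B, a histone-binding nuclear phosphoprotein and the most abundant of the leading genes, stood at 326 and 337 FPKM in the control, 343 and 328 with siRNA1, and 156 and 164 with siRNA2 (log2 ratio -1.06 ± 0.05, 2.10-fold). Only the siRNA2 columns of ANP32B were low; it has a close relative, ANP32A, so shared reads may bear on its value. NRAS, a GTPase of the RAS pathway, stood at 26.6 and 24.7 FPKM in the control, 29.9 and 28.4 with siRNA1, and 15.25 and 15.01 with siRNA2 (log2 ratio -0.90 ± 0.04, 1.93-fold). HIKESHI, a nuclear import carrier of heat shock protein 70, stood at 30.1 and 31.5 FPKM with siRNA1 and at 14.7 and 15.5 with siRNA2 (control mean 27.7). For ANP32B, NRAS and HIKESHI the control lay with siRNA1.

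A further set was below the control with both siRNAs and lowest with siRNA2. AIDA, an axin-binding protein, stood at 33.3 and 32.9 FPKM in the control, 19.6 and 18.7 with siRNA1, and 8.40 and 8.19 with siRNA2 (log2 ratio -1.12 ± 0.04, 2.31-fold). BZW1, a regulator of translation, stood at 116 and 115 FPKM in the control, 88.0 and 82.8 with siRNA1, and 42.4 and 42.5 with siRNA2. SEC23A, a coat protein of vesicles leaving the endoplasmic reticulum, stood at 81.0 and 74.1 FPKM in the control, 40.9 and 39.5 with siRNA1, and 19.7 and 20.3 with siRNA2. In each of these genes the 3 samples were fully apart, in the order control, siRNA1, siRNA2. The locus WRB-SH3BGR, also among the 20 lowest ratios, is a readthrough of neighbouring genes and its value is uncertain.

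The control took no part in the choice of these genes, but the siRNA levels that chose them enter the ratios to it. The control lay on different sides in the groups. Among the 293 genes higher with siRNA2, the control mean was nearer siRNA2 in 250 (85.3%), and the level with siRNA1 was at least 1.5-fold below the control in 202 and above it in 1. With siRNA2, 21 of these genes were at least 1.5-fold below the control and 22 above. Over all 11888 genes, 970 were at least 1.5-fold below the control with siRNA1 and 668 above. With siRNA2 these were 745 and 554. The median log2 ratio of the 293 genes to the control was -0.74 with siRNA1 and 0.05 with siRNA2. Most genes higher with siRNA2 were thus genes lower with siRNA1 than in the control.

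The split was less one-sided among the 156 genes lower with siRNA2. The control was nearer siRNA1 in 98 (62.8%) and nearer siRNA2 in 58 (37.2%). The level with siRNA2 was at least 1.5-fold below the control in 77, and that with siRNA1 at least 1.5-fold above it in 28. Over all 11888 genes these counts were 745 and 668. The median log2 ratio of the 156 genes to the control was -0.57 with siRNA2 and 0.14 with siRNA1. Over all 11888 genes the control was nearer siRNA2 in 57.4%, and the medians were 0.03 with siRNA1 and 0.02 with siRNA2. Both ratios share the 1 control sample, so an error in it would move them together.

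**Figure D3:**
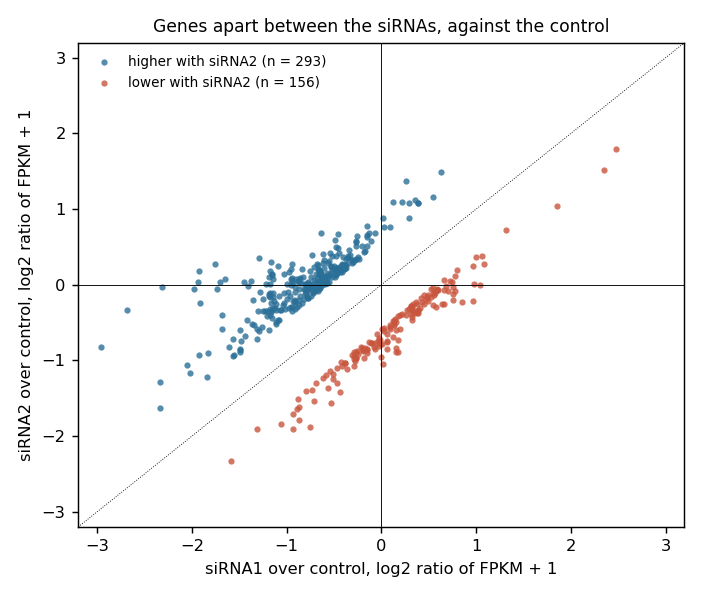
Log2 ratio of FPKM + 1 to the control with siRNA1 (horizontal) and siRNA2 (vertical) for the 293 genes higher (blue) and 156 lower (red) with siRNA2, 1 point per gene, with the line of equal ratios; the empty band along it is the 1.5-fold rule. Most blue points spread to the left at a vertical value near 0 (medians -0.74 and 0.05), and the red points lie lower and farther right (medians 0.14 and -0.57).

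Part of the genes apart between the siRNAs held the same short words in their 3′ UTRs. The longest annotated 3′ UTR of a protein-coding transcript (GENCODE v29, GRCh38) could be read for 11793 of the 11888 genes, and each of the 16384 words of 7 letters was counted on the transcript strand only. The word TCAATCA had the largest excess among the genes higher with siRNA2, and CTCAGTA among the genes lower; both were chosen for this excess, so their shares are a description with no test. The sites below, 25 bases each with the word in capitals, are the first copies after the stop codon in 5 of the leading genes higher with siRNA2 and in 3 of those lower, and show that the bases around the word differ from gene to gene.
CRIM1: ccaagccaaTCAATCAgccagttcc
TSPAN6: taggttgatTCAATCAagatgtatg
NEU1: gactgactaTCAATCAaaatgtttg
HNRNPF: tgagttactTCAATCAttttcacag
SERPINH1: aagcctgccTCAATCAgtattcata
AIDA: attttaccaCTCAGTAgaaaccatc
BZW1: aactacaccCTCAGTAaagcaaaca
NRAS: tccccagctCTCAGTAgtttagtac

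All of these sites are exonic, in the 3′ UTR of the gene named, and the coordinates are those of the word in GRCh38. The first copy lies at chr2:36549401-36549407 on the plus strand in CRIM1, at chrX:100629882-100629888 on the minus strand in TSPAN6 and at chr6:31859248-31859254 on the minus strand in NEU1. It lies at chr10:43386605-43386611 on the minus strand in HNRNPF and at chr11:75572373-75572379 on the plus strand in SERPINH1. The second word lies at chr1:222669846-222669852 on the minus strand in AIDA, at chr2:200822195-200822201 on the plus strand in BZW1 and at chr1:114707950-114707956 on the minus strand in NRAS. CRIM1 holds 2 copies in its 3′ UTR, TSPAN6 3, AIDA 2, BZW1 3 and NRAS 2.

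TCAATCA was in the 3′ UTR of 103 of 292 genes higher with siRNA2 (35.3%), 954 of all 11793 (8.09%) and 4.58% of the genes lower. Of the genes at least 2-fold higher, 29 of 48 held it (60.4%). Per kilobase of 3′ UTR there were 0.217 copies in the higher genes and 0.0469 in all genes, and in coding sequence 14.4% of the higher genes held the word against 6.50% of all. The next words in rank, such as CAATCAA (30.8% against 7.75%), overlap it by a shift of 1 letter or a few. Of the 20 genes with the highest ratios 15 held TCAATCA in the 3′ UTR. CDH1 and DDAH1 did not, nor did they in coding sequence, and ADAM9, COMMD10 and PMM2 also lacked it.

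CTCAGTA was in the 3′ UTR of 53 of 153 genes lower with siRNA2 (34.6%), 11.3% of all and 9.59% of the genes higher. Its density was 0.207 copies per kilobase in the lower genes and 0.0661 in all, and in coding sequence the shares were 10.5% and 7.96%. Of the 20 genes with the lowest ratios 7 held it: AIDA, BZW1, IL18BP, KLHL13, NRAS, PAQR3 and ZNF618. ANP32B, SEC23A, CD101 and HIKESHI did not. The next words in rank, TCAGTAT (37.3% against 16.1%) and TCTCAGT (35.9% against 16.5%), overlap it. TTGCTTT (47.7% against 30.2%), which does not, followed just ahead of the overlapping ACTCAGT (30.1% against 12.5%). TTACTTT (41.2% against 24.7%), also without its core, had an excess close to theirs. Both words were in the 3′ UTR of 15 of 292 genes higher, 4 of 153 lower and 222 of all 11793. Neither word was in 176 of the 292 genes higher, 97 of the 153 lower and 9727 of all 11793. Most called genes thus held neither, as did a larger share of all genes.

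Over all genes with a 3′ UTR, whether apart or not, the first word went with a lower level with siRNA1 alone. These genes include the called ones for which the word was chosen, so the values are a description and no independent support. The median log2 ratio of siRNA1 over the control was 0.04 in the 10839 genes with no copy of TCAATCA, -0.08 in the 836 with 1 copy and -0.20 in the 118 with 2 or more. With siRNA2 the same medians were 0.02, 0.01 and 0.03. The share of genes called higher with siRNA2 was 1.74% with no copy, 9.21% with 1 and 22.0% with 2 or more. Where the word was only in coding sequence (661 genes), 3.78% were higher.

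The second word went with lower levels with both siRNAs, again over genes that include the called ones for which it was chosen. The median log2 ratio of siRNA1 over the control was 0.04 without CTCAGTA, -0.06 with 1 copy (1157 genes) and -0.12 with 2 or more (177 genes), and that of siRNA2 over the control was 0.03, -0.08 and -0.14. Between the siRNAs the medians were -0.01, -0.07 and -0.11, and 0.956%, 3.72% and 5.65% of genes were called lower with siRNA2. Genes with a copy also had longer 3′ UTRs. For TCAATCA the median was 3298.5 bases with 1 copy and 3934.5 with 2 or more, against 1244 with none. For CTCAGTA it was 3090 bases with 1 copy and 5592 with 2 or more, against 1203 with none. The called genes too had longer 3′ UTRs, with a median of 1651 bases in those higher and 1721 in those lower, against 1352 in all. The genes lower with siRNA2 had a median 3′ UTR GC content of 37.8% against 42.6% in all. The part of UTR length, base composition or siRNA sequence in these shares was not tested.

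**Figure D4:**
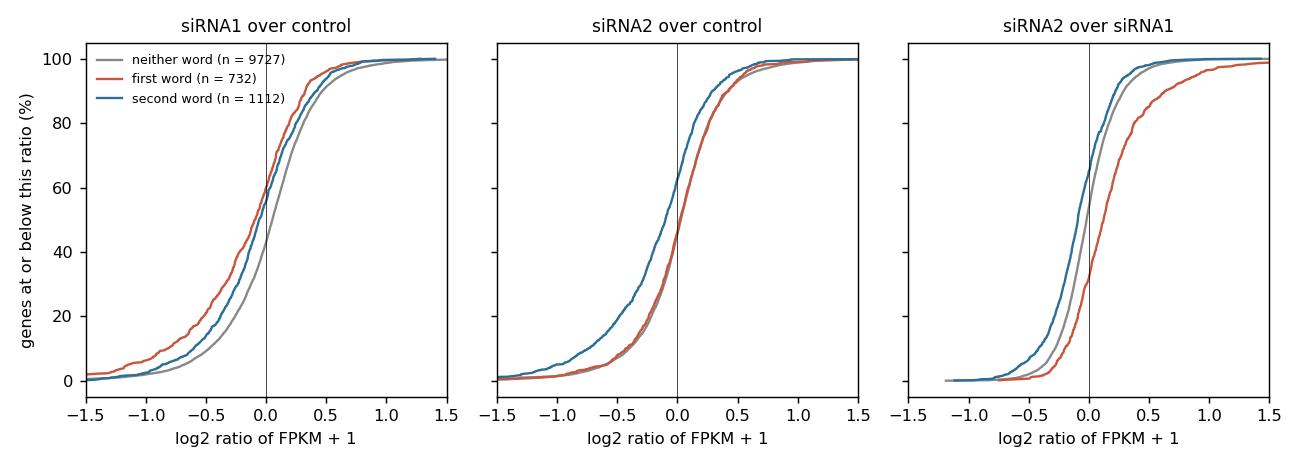
Share of genes (vertical, percent) at or below each log2 ratio of FPKM + 1 (horizontal) for siRNA1 over the control, siRNA2 over the control and siRNA2 over siRNA1, for genes whose 3′ UTR holds neither word (grey, 9727 genes), the first word TCAATCA only (red, 732) or the second word CTCAGTA only (blue, 1112). The red curve lies left of the grey one with siRNA1, along it with siRNA2 and right of it between the siRNAs, while the blue curve lies left of the grey one in each panel.

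Genes were also grouped by function in 42 lists, 41 of which had a member at 1 FPKM or more. Of 814 distinct list genes 32 (3.93%) were higher with siRNA2 and 8 (0.983%) lower, beside 2.46% and 1.31% of all genes. Of the 41 lists 18 had no call, which is no sign of stability, as the lists are small and 3.78% of all genes were called. The medians of the lists with 5 members or more ran from -0.14 to 0.28. No list moved as a whole by as much as 1.5-fold.

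In their lists CDH1, TSPAN6 and DDAH1 were the only calls, and CRIM1 was the only gene called higher. CDH1 was the only call among 17 cadherins, catenins and desmosomal genes (median log2 ratio 0.01), where the desmosomal cadherin DSG3 (-0.52) and the catenin CTNNA1 (-0.50) were lower with siRNA2 without reaching 1.5-fold. There was no call among 15 tight junction genes or 19 genes of mesenchymal state and its transcription factors. TSPAN6 was the only call among 19 tetraspanins (median 0.01), and DDAH1 the only one among 13 genes of arginine methylation and nitric oxide, in which DDAH2 averaged 15.05 FPKM with siRNA1 and 13.29 with siRNA2. Among 28 BMP and TGF-beta genes, CRIM1 was higher and the co-receptor TGFBR3 lower, at 4.72 and 4.28 FPKM with siRNA1 and 2.54 and 2.43 with siRNA2.

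Adhesion and squamous genes were split. The laminin receptor subunit ITGA6 stood at 30.5 and 29.8 FPKM with siRNA1 and 50.2 and 48.7 with siRNA2, and the collagen receptor subunit ITGA2 at 40.8 and 42.2 against 76.1 and 71.0. ITGB8, a subunit of a receptor that activates TGF-beta, went the other way, at 48.3 and 47.9 FPKM against 29.6 and 28.8. These were the 3 calls among 18 integrin and hemidesmosome genes. The hyaluronan receptor CD44, at 41.2 and 41.9 FPKM with siRNA1 and 69.1 and 70.2 with siRNA2, and ITGA6 were the 2 calls among 14 basal keratinocyte genes. No call fell among 15 genes of squamous differentiation or 17 squamous transcription factors; the summed squamous markers were 3115 and 3191 FPKM with siRNA1, 3225 and 3201 with siRNA2, and 7398 and 7329 in the control.

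Growth and signaling genes gave more calls higher than lower, as did all genes (293 or 2.46% higher and 156 or 1.31% lower). Among 16 immediate early genes 3 were called higher and 1 lower, and among 24 G1 genes 2 and 1. Whether their lean differs from that of all genes was not tested. The cyclin gene CCND1 stood at 363 and 350 FPKM in the control, 86.5 and 88.3 with siRNA1, and 157 and 160 with siRNA2, so it was below the control with both. MYC stood at 70.7 and 68.3 FPKM in the control, 26.8 in both columns with siRNA1, and 48.1 and 47.4 with siRNA2. The AP-1 subunit FOSL1 stood at 64.6 and 64.3 FPKM in the control, 21.3 and 23.1 with siRNA1, and 40.3 and 44.3 with siRNA2. For these 3 regulators of proliferation siRNA2 lay between siRNA1 and the control, with no overlap. The immediate early gene EGR1 had another order, at 24.6 and 23.5 FPKM in the control, 36.2 and 36.5 with siRNA1, and 18.6 and 20.2 with siRNA2. E2F8, a repressor of the E2F family, was higher with siRNA2 and RBL1, a relative of the retinoblastoma protein, lower (log2 ratios 0.96 and -0.72), the other calls with CCND1 among 24 G1 genes.

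In the signaling pathways the receptor NOTCH1 was the only call among 17 NOTCH genes (0.80), and APC, DKK1, NKD2 and WNT10B the 4 among 30 WNT genes (0.60 to 0.75). APC and NKD2 are inhibitors inside the cell, DKK1 is a secreted inhibitor and WNT10B a ligand. The 24 genes of EGFR and MAPK feedback had the highest list median, 0.28, with 22 of 24 above 0, beside 5523 of 11888 genes. Only the ligand gene TGFA was called there, at 3.21 and 3.26 FPKM with siRNA1 and 5.80 and 6.44 with siRNA2. The phosphatase DUSP6 (0.58) and the inhibitor SPRY1 (0.57) lay just inside 1.5-fold.

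Lipid genes held single large differences. SREBF2, the transcription factor that drives cholesterol synthesis, stood at 31.1 FPKM in both control columns, 10.2 and 11.3 with siRNA1, and 32.3 and 31.2 with siRNA2. It was the only call among 25 genes of cholesterol synthesis, whose median was 0.23 with 21 of 25 above 0. Among its known target genes, DHCR7 had a log2 ratio of 0.57. The fatty acid elongase ELOVL6 stood at 9.04 and 9.4 FPKM with siRNA1 and 17.0 and 15.7 with siRNA2 (control mean 9.75), here with siRNA2 above the control.

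Of the genes of RNA silencing 2 of 14 were apart between the siRNAs, and of those of the type I interferon response 2 of 21, beside 3.78% of all genes. AGO2, the Argonaute that cuts, stood at 27.3 and 22.5 FPKM in the control, 11.9 and 13.7 with siRNA1, and 22.0 and 21.0 with siRNA2. TNRC6A, its silencing partner, stood at 28.1 and 27.9 FPKM in the control, 12.01 and 11.96 with siRNA1, and 20.4 in both columns with siRNA2. The siRNA1 columns were lowest in both genes. In the interferon list (median -0.10), EIF2AK2, a kinase that senses double-stranded RNA, stood at 11.04 and 11 FPKM in the siRNA1 columns and at 17.4 and 17.7 with siRNA2 (control mean 19.8). OASL, an interferon-induced antiviral gene, stood at 0.49 and 0.48 FPKM in the control, 0.23 in both columns with siRNA1, and 1.22 and 1.18 with siRNA2, and passed the limit of 1 FPKM only through siRNA2. EIF2AK2 was thus below the control with both siRNAs, and OASL above it with siRNA2.

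The lists of YAP and TEAD genes and of the matrix held 1 or 2 calls each, beside 3.78% of all genes. CTGF, a secreted matrix protein and YAP target, stood at 4.43 and 4.6 FPKM with siRNA1 and 8.82 and 8.66 with siRNA2 (control columns 9.46 and 10.1). It was the other call with WWTR1 among 19 genes of the YAP and TEAD list, which holds targets and regulators such as YAP1. TIMP3, an inhibitor of matrix proteases, and ADAM9 were the 2 calls among 18 genes of matrix proteases (TIMP3 0.63), and the syndecan SDC3 the only one among 20 proteoglycan genes (0.68).

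Housekeeping and cell cycle lists leaned slightly lower with siRNA2. DNA replication had the lowest median, -0.14, with 11 of 40 genes above 0 and no call. Mitosis had a median of -0.12 over 30 genes and cytosolic ribosomal proteins -0.08 over 44, again with no call. Of 40 respiratory chain genes only NDUFA1, a subunit of complex I, was called, at 85.9 and 81.2 FPKM with siRNA1 and 53.8 and 50.7 with siRNA2. The p53 target BTG2 was lower (-0.73). The glycolysis and hypoxia list leaned the other way (median 0.09, 20 of 28 genes above 0), although its 2 calls, PFKM and SLC2A3, were lower (-0.61 each). No call was made among 29 NRF2 targets, 26 genes of the unfolded protein response, 30 proteasome genes or 17 NF-kB and cytokine genes. Across the 298 KEGG pathways of the deposited annotation with at least 15 genes, medians ran from -0.16 (protein export) to 0.17 (starch and sucrose metabolism).

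**Figure D5:**
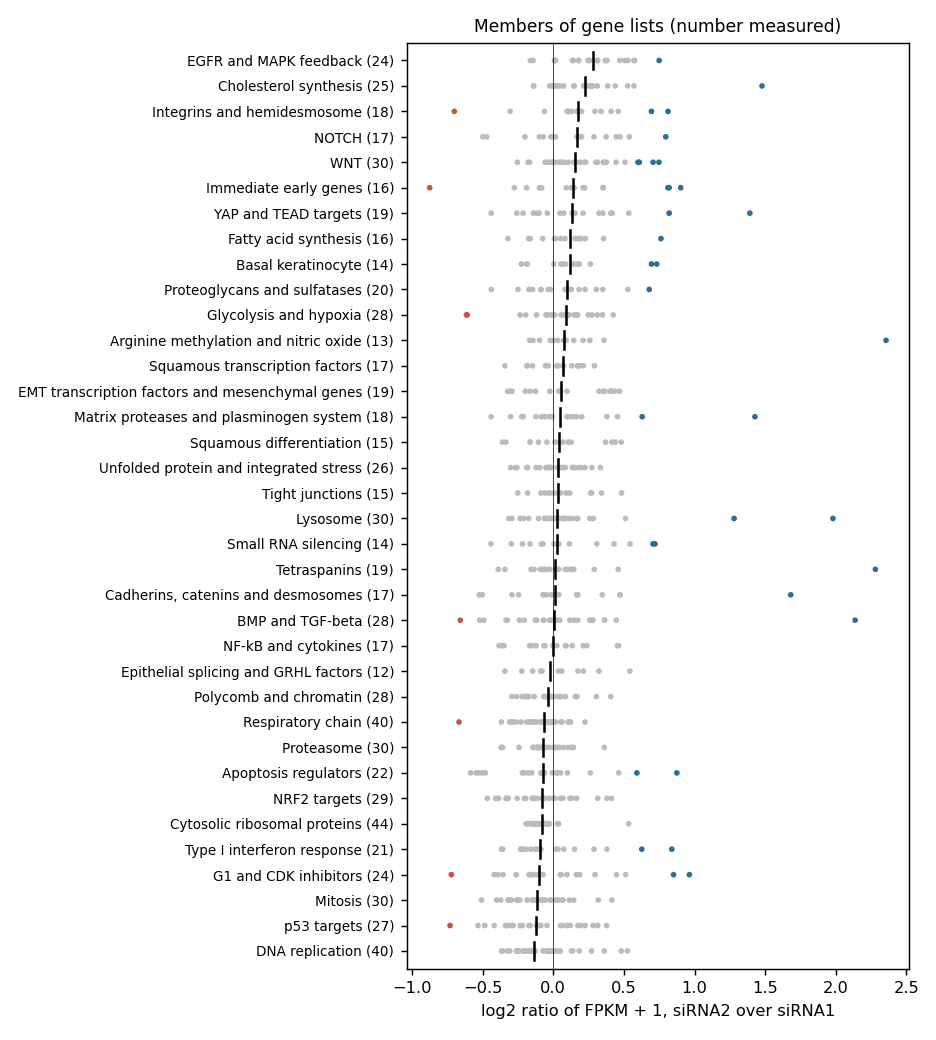
Log2 ratio of FPKM + 1, siRNA2 over siRNA1 (horizontal), of each measured member of the 36 gene lists with 10 or more members, 1 row per list with its number of members; black bars are list medians, blue and red points genes called higher and lower. Medians lie between -0.14 and 0.28, and the points far to the right are single genes such as DDAH1 at 2.36, TSPAN6 at 2.28 and CRIM1 at 2.14.

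The called genes were close to all genes in the length of the whole transcript, although their 3′ UTRs were longer. The median transcript length was 3314 bases for the genes higher, 3080.5 for those lower and 3186 for all. Chromosome X held 2.73% of the genes higher and 7.05% of those lower against 3.15% of all, which is 8 and 11 genes. Chromosome 11 held 9.22% of the genes higher (27) and 4.49% of those lower (7) against 5.63% of all. In the authors' deposited table, which uses another scale, 7486 of the 11888 genes (63.0%) had a q-value under 0.05 for siRNA2 against siRNA1. Such q-values compare the reads of 2 libraries, not the siRNAs.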

How the data were processed

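RNA of KYSE140 cells was measured in 3 samples, a negative control and DLX5 siRNA1 and siRNA2, with 1 sample each. The authors deposited 1 gene table; per the file headers its values are FPKM, in 2 replicate columns and as a mean per sample, beside log2 fold changes, p-values and q-values of the authors' comparisons. Without giving roles, the submitters' processing notes list the build hg19 and RSEM 1.2.12, Bowtie2 2.2.5, DESeq 3.4 and HISAT2 2.0.4. FPKM is relative to the total, so a change in abundant genes shifts the others.

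Of 19280 lines, 14 without a gene ID and 2047 genes with no value were left out, which left 17219 genes; 17182 IDs matched a RefSeq name table, which restored 26 symbols turned into dates. The table has 2 per-sample columns under 1 heading, which were not used; replicate 1 of a siRNA sample was taken as 2 times the mean minus replicate 2. Calls used log2(FPKM + 1), a scale that understates the change of low genes, with Python 3.11.15, pandas 2.3.3 and numpy 2.4.6. The rule was at least 1 FPKM with either siRNA, 1.5-fold or more, and replicate columns apart. No model was fitted and no test made, as there was 1 sample per group. The call rule was also run on simulated data. With 1 sample per group such data cannot show how far separate cultures differ, so no support for the calls is drawn from them.

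Depth was estimated from low FPKM values of transcripts of 300 to 1500 bases, searching 8000000 to 25000000 reads; 87.5% to 91.5% of them fell within 0.2 reads of a whole number. The table gives no counts, so no interval was made. The 3′ UTRs come from GENCODE v29 on GRCh38, not the build of the table, and were matched by Entrez ID for sequence and site position only.

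Genes named are CDH1, CRIM1, DDAH1, TSPAN6 and DLX5, the 20 highest and 20 lowest ratios with columns apart, up to 5 called members and the 2 most abundant of each list, up to 4 genes of the 5 highest and 5 lowest pathways, and genes past 1.5-fold in opposite directions from the control. DLX1, DSG3, CTNNA1, DDAH2, DUSP6, SPRY1 and DHCR7 were named after their values were seen. Some genes that this rule takes are not reported here. The members and lists were chosen with earlier results of these data known. Alternatives were another pseudocount, other minimum FPKM, median centring, quantile normalization, ignoring overlap, the authors' deposited fold change and leaving out each replicate column.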

Additional observations from a re-analysis of the deposited data

Results flagged for a closer look

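LPCAT1, an enzyme of phosphatidylcholine remodelling, moved in opposite directions from the control. It stood at 13.7 and 12.4 FPKM in the control columns, 7.82 and 8.20 with siRNA1, and 22.1 and 20.9 with siRNA2. Its log2 ratio to the control was -0.64 with siRNA1 and 0.68 with siRNA2, and it alone of 11888 genes was past 1.5-fold on both sides. The difference was not tested, since there was 1 sample per siRNA, and both ratios share the control.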

How the results depend on the processing

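With a pseudocount of 0.1, 445 genes were at least 1.5-fold higher and 330 lower, and by the authors' deposited fold change 460 and 352, against 293 and 156. The counts by the deposited fold change leave out the rule on replicate columns. At 2-fold these were 86 and 40, and 94 and 53, against 49 and 8. List members lower went from 8 to 17 under either setting. Leaving out 1 replicate column gave 294 to 329 higher and 170 to 188 lower at 1.5-fold, 50 to 54 higher at 2-fold, and 10 to 17 lower at 2-fold, the most without siRNA1 replicate 1. Centring the ratios on their median gave 316 higher and 134 lower. For the word shares, chosen after seeing the data, genes at least 2-fold apart gave 60.4% for TCAATCA against 35.3% and 25% (2 of 8 genes) for CTCAGTA against 34.6%. Of the 293 and 156 calls, 240 and 110 remained at 5 FPKM or more, 293 and 134 after centring, and 261 and 132 without siRNA1 replicate 1. No paired analysis was possible because each group has 1 sample. The cause of these shifts was not tested.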
